A study of Mus musculus with 3 samples.

Results

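Serine/arginine-rich (SR) proteins and heterogeneous nuclear ribonucleoproteins (hnRNPs) are the main families of general RNA-binding proteins that choose splice sites. The genes of both families were taken by symbol from the count tables, as those named Srsf followed by a digit or starting with Hnrnp. There were 32 of them among 19744 genes, 11 Srsf and 21 Hnrnp genes. Single-cell mRNA counts came from 3 medulloblastomas of C57BL/6 background mice of genotype hGFAP-Cre/SmoM2, called G-Smo. Each tumour gave 1 library and is taken as 1 mouse from the titles. The human GFAP promoter drives Cre in many neural progenitors, where it switches on SmoM2, a constantly active version of the Hedgehog pathway protein Smo. Every mouse had 5 daily injections into the abdomen of palbociclib at 25 mg/kg in a POx formulation (POx-palbo) from postnatal day 10, and tumours were taken on postnatal day 16. A part of the cerebellum or tumour was dissociated without sorting, so other cell types can be present. Palbociclib inhibits the cell cycle kinases CDK4 and CDK6. All 3 tumours form 1 treated group and untreated tumours are not analysed here, so no value below measures an effect of the drug.

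SR proteins bind exonic enhancers and, through domains rich in arginine and serine, help the spliceosome to recognise nearby splice sites. Many hnRNPs bind exonic or intronic silencers and oppose that recognition, and several also act in mRNA stability, export and chromatin organisation. In the developing cerebellum, granule neuron progenitors leave the cell cycle and switch on neuronal splicing regulators as they become granule neurons. Neurod1 encodes a transcription factor of differentiating granule neurons, while Mki67 and Top2a mark cells in cycle. The members were therefore described in tumour totals and in barcodes split by these 3 genes.

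The tables held 8827, 2330 and 9802 barcodes in tumours 1, 2 and 3, with 1150463, 248617 and 1324350 counts. Depth was low, with medians of 84 to 105 counts a barcode, and 1060, 148 and 1059 barcodes reached 200 counts. The tumours shared 3 to 8 barcode sequences by pair. Mitochondrially encoded genes took 11.4% of counts in tumour 2 against 3.97% in tumour 1 and 5.61% in tumour 3. Summed granule progenitor markers were present in every set of barcodes compared below, at 17.3 to 33.8 per 10000 counts, and summed granule neuron markers at 6.75 to 35.9. Not every listed gene was. Gabra6, of the granule neuron list, had no count in any set, and Ptch1, of the progenitor list, had none in any set of tumour 2. Atoh1 and Gli2 also had none in the tumour 2 barcodes with Neurod1 only. Tumour 2 held 2 very deep barcodes (over its median by more than 4 SD), of 3172 and 1678 counts, the first with 23 counts of vascular markers and the second with 53 of myeloid markers. Both had a Neurod1 and a Mki67 or Top2a count, so they fell in the detected set of each split.

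Promoters are shown for Srsf10 and Hnrnpd, the members nearest to the test's threshold in the comparison by proliferation genes. They were chosen after their values had been seen. The 250 bases before the start are from RefSeq on build GRCm38.p6 and are written 5′ to 3′ on the strand of the gene. They lie at chr4:135855821-135856070 on the + strand for Srsf10 and at chr5:99978939-99979188 on the - strand for Hnrnpd. Capitals mark matches to motifs bound by E2F factors (TTTGGCGC, TTTCGCGC, TTTCCCGC or TTTGCCGC) or by ETS factors (CCGGAAGT), on either strand.
Srsf10: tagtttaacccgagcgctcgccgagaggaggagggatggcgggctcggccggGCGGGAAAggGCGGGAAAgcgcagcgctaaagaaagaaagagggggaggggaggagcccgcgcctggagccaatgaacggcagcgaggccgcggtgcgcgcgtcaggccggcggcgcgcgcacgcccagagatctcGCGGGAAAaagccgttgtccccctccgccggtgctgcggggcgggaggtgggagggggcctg
Hnrnpd: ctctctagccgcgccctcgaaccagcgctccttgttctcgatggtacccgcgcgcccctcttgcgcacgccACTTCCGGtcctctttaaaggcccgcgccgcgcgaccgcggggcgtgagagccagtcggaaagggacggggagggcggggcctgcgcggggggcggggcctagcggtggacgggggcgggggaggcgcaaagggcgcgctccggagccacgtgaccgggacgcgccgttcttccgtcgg
The Srsf10 window holds 3 E2F matches and no ETS match, and the Hnrnpd window holds 1 ETS match and no E2F match.

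Among the members, 29 had a promoter entry, with 41 starts in all, since some genes have several. Hnrnpul2, Hnrnpll and Hnrnpa1l2-ps had none. The median member window had 68.0% G and C and a ratio of observed to expected CpG of 0.98, against 52.4% and 0.37 over 32851 windows of all genes. An E2F match was found in 4 of the 41 windows (9.76%) and in 1.86% of all windows, and an ETS match in 6 (14.6%) against 2.88%. The E-box letters CAGATG or CAGCTG, which bHLH factors such as Neurod1 can bind, were in 6 windows (14.6%) against 25.5% of all. The CHR letters TTTGAA or TTCGAA, an element of many mitotic genes, were in 7 (17.1%) against 17.1% of all. TATAAA, the TATA box, was in 3 (7.32%) against 12.4%, and the NRF1 motif in 1 (2.44%) against 0.782%. CAGCTG and TTCGAA read the same on both strands, and none of the E2F, ETS, E-box or CHR motifs contains another. A match is a run of letters and was not tested as a binding site. Windows of 1 gene can overlap, and the Srsf4 windows from chr4:131873387 and chr4:131873389 both count for ETS and E-box. The windows of all genes were not matched to those of the members for G and C. The part of this in the motif shares was not tested. Within 1000 bases upstream, 10 of the 29 genes had the start of a gene on the other strand. The share over all genes was not determined, so this count is not read as a trait of the members. Among these starts were Cbx3 at 722 bases from Hnrnpa2b1 and Cbx5 at 545 bases from Hnrnpa1, both genes of heterochromatin protein 1.

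Together the members took 1.39%, 1.14% and 1.38% of all counts in tumours 1, 2 and 3. With mitochondrial genes left out of the total these shares were 1.45%, 1.29% and 1.46%. Tumour 2 was therefore the lowest on both scales. Libraries were made from mRNA 3′ ends, so levels in counts per 1000000 counts of the tumour or set (CPM) were set side by side between genes without dividing by length. Of the 32 members, 31 had counts in all 3 tumours. The exception was the pseudogene Hnrnpa1l2-ps, with 1 count in tumour 1 and 0 in the other two. Srsf12, a close relative of Srsf10, had 10 counts in all.

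The highest member was Hnrnpu, which encodes a scaffold attachment protein that binds RNA and chromatin. Its level was 1758, 1573 and 2224 CPM in tumours 1, 2 and 3, a mean of 1852 ± 335 (SD, n = 3), which ranked 20 among all genes. Hnrnpa2b1, whose protein packages pre-mRNA and sorts RNA for transport, stood at 1765, 1444 and 1870 CPM, with a mean of 1693 ± 222 (SD, n = 3). These levels overlap between the genes, so their order is not resolved. The next group was Hnrnpm (959 ± 99.1 CPM), the SR member Srsf11 (919 ± 206) and Hnrnpk (910 ± 130; SD, n = 3 each), and their means lay within their spread. Hnrnpm binds GU-rich RNA, Srsf11 is an SR protein that interacts with the splice site factor U2AF, and Hnrnpk binds C-rich RNA through KH domains. Then came Hnrnpc, which binds U-tracts (649 ± 118 CPM), Hnrnpd, which binds AU-rich elements (542 ± 36.9), and the related Hnrnpdl (476 ± 133). Together these 8 genes, 7 hnRNP and 1 SR, held 62.1% of member counts. Below them, mean levels ran from Hnrnpr (470.5 CPM) through Srsf10 (461), Hnrnpl (418), Srsf7 (355) and Srsf3 (348) to Hnrnpll (66.1) and Srsf9 (64.3). The classical SR protein gene Srsf1 stood at 120 ± 11.9 CPM and Hnrnpa1, a widely studied splicing repressor, at 118 ± 32.0 (SD, n = 3 each).

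**Figure D1:**
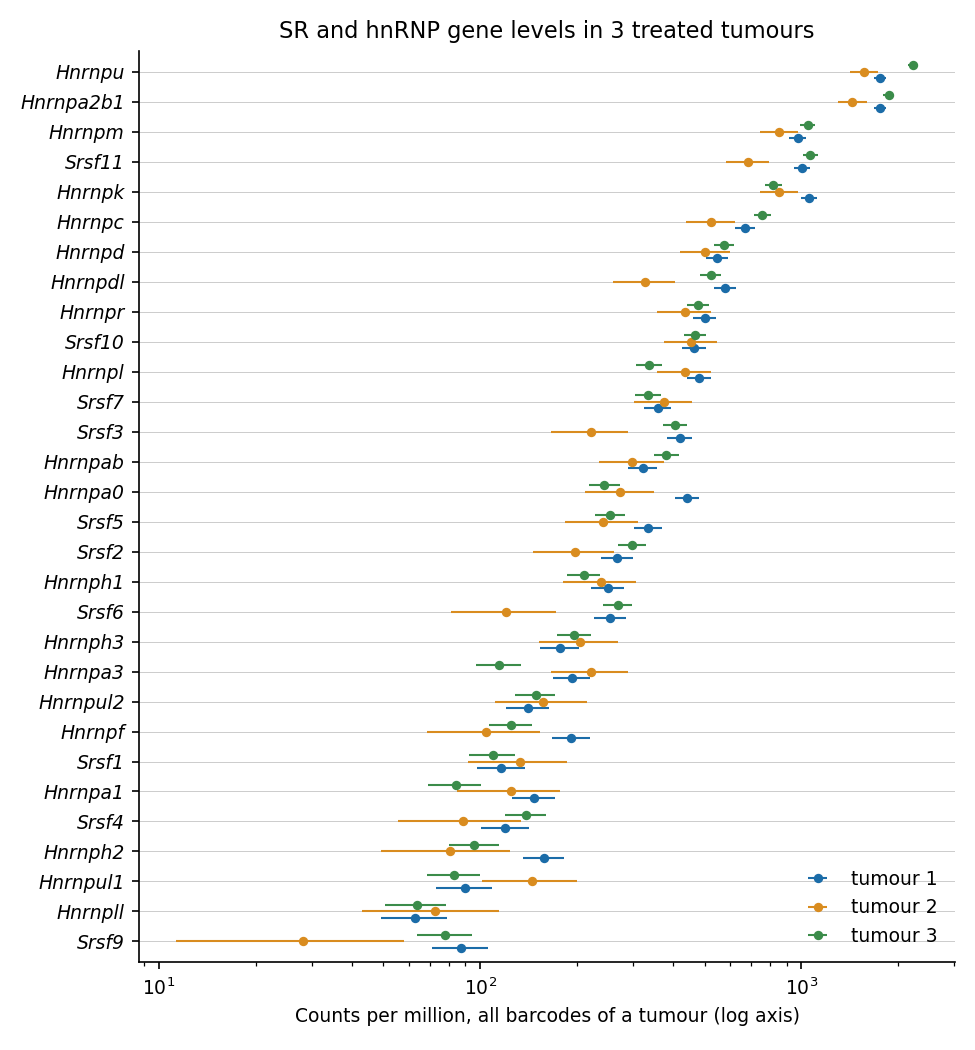
Level of each member with at least 100 counts in all (30 genes), in CPM over all barcodes of a tumour on a log axis, with exact 95% Poisson intervals as bars and 1 colour a tumour. Hnrnpu and Hnrnpa2b1 lead in every tumour, and tumour 2 (orange) is the lowest of the 3 for 18 of the 30 genes.

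The members did not differ between tumours by 1 common factor. Of 30 members with at least 100 counts, 18 were lowest in tumour 2, 9 in tumour 3 and 3 in tumour 1, and with mitochondrial genes left out of the total 15 were lowest in tumour 2. The most even was Srsf10, at 462, 455 and 467 CPM. Hnrnpa0, an intronless hnRNP gene, was at 441 CPM in tumour 1 (exact 95% Poisson interval 403 to 481), 274 in tumour 2 (212 to 347) and 244 in tumour 3 (218 to 272). Tumour 1 therefore stood above the other two for Hnrnpa0 by more than counting error. Srsf6, which regulates among others the exons of Tau, was at 254 CPM in tumour 1, 121 in tumour 2 (81.4 to 172) and 269 in tumour 3. Its tumour 2 interval lay below those of tumours 1 (226 to 285) and 3 (242 to 298). Srsf9 had 100, 7 and 103 counts, or 86.9, 28.2 and 77.8 CPM, a 3.09-fold range. Srsf6 and Srsf9 were the 2 members with a range above 2-fold, while 8 of the 30 varied by less than 1.2-fold. Each tumour is 1 sample, so these differences have no replicate check, and the intervals cover counting error only.

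In tumours 1 and 3 the share of counts taken by members was higher in deep than in shallow barcodes, by more than counting error. In barcodes of 50 to 99 counts it was 1.34% (95% Poisson interval 1.31 to 1.38), 1.10% (1.04 to 1.16) and 1.36% (1.32 to 1.39) in tumours 1, 2 and 3. In barcodes of 200 or more counts it was 1.45% (1.42 to 1.49), 1.13% (1.04 to 1.23) and 1.51% (1.47 to 1.55). The SR members took 0.297% (0.281 to 0.314), 0.22% (0.194 to 0.249) and 0.316% (0.298 to 0.335) in the shallow barcodes and 0.388% (0.37 to 0.406), 0.244% (0.201 to 0.293) and 0.381% (0.362 to 0.40) in the deeper ones, so their intervals were apart in tumours 1 and 3 and overlapped in tumour 2. The hnRNP members took 1.05%, 0.875% and 1.04% in the shallow barcodes and 1.07%, 0.89% and 1.13% in the deeper ones. Within the 9 barcodes of tumour 2 with 500 or more counts the share of all members was only 0.756% (95% Poisson interval 0.588 to 0.957). The 2 very deep barcodes described above are among these 9, and their own member shares were 0.567% and 0.358%. Hnrnpab, an RNA-binding gene related to Hnrnpd, was lower in barcodes of 200 or more counts, at 227 ± 58.4 CPM, than over all barcodes, at 333 ± 42.7 (SD, n = 3 each; the first are part of the second, and no test was made).

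**Figure D2:**
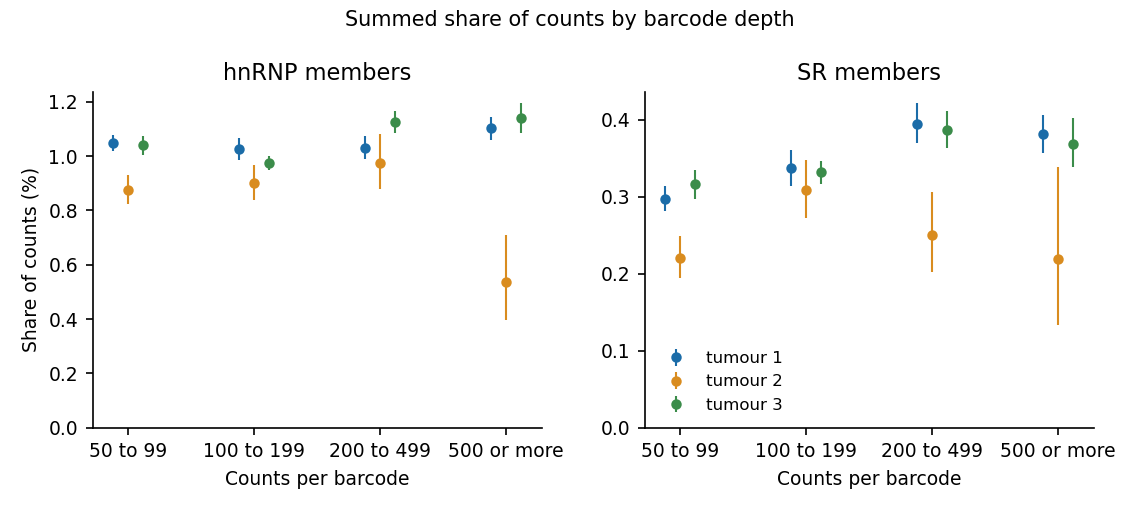
Summed share of counts (percent) taken by the hnRNP members (left) and the SR members (right) in barcodes of 4 depth classes, with exact 95% Poisson intervals and 1 colour a tumour. In tumours 1 and 3 the hnRNP share stays between 0.973% and 1.14% across classes, and in tumour 2 it falls to 0.537% in the 9 deepest barcodes.

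The first comparison asked how the members differ between barcodes with and without Neurod1 mRNA. Barcodes of at least 200 counts were split, and their counts were summed within each tumour. In such sums fewer cells with a gene's RNA and less RNA per cell cannot be told apart. A Neurod1 count was found in 330, 51 and 407 barcodes, with median depths of 372.5, 253 and 316 counts. The barcodes without one numbered 730, 97 and 652, with medians of 345, 256 and 294 counts. Members took 1.38%, 1.06% and 1.49% of counts with Neurod1 detected and 1.49%, 1.18% and 1.52% without, so the summed share was lower with Neurod1 in all 3 tumours. The means were 1.31% ± 0.223 and 1.40% ± 0.186 (SD, n = 3 each), and the difference within a tumour averaged -0.085 ± 0.048 percentage points (SD, n = 3). With the very deep barcodes left out, tumour 2 no longer had a lower share with Neurod1 (1.25% against 1.18%), and the mean difference was -0.034 ± 0.096 points. With barcodes thinned to 200 counts it was 0.034 ± 0.184 points. Thinning was 1 random draw, and barcodes were split again by the counts left. Neurod1 was then found in 41 to 303 barcodes a tumour, against 51 to 407 before.

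No single member passed the test in this split. A filter on low counts left 29 members, all but Srsf9, Srsf12 and Hnrnpa1l2-ps, and 0 of 29 had an adjusted p under 0.05 in edgeR's quasi-likelihood test with tumour as block and Benjamini-Hochberg adjustment over 3477 genes, where 0.978% of all genes did. Without the tumour block 0 of the 3477 genes passed. At an unadjusted p under 0.05 were 3 members (10.3%) against 10.6% of all genes, and the members' share is near that of all genes. DESeq2 called 0 members, with 0 at an unadjusted p under 0.05 against 2.27% of all genes, and called 0 of the 3477 genes. Their median log2 difference was -0.09 against -0.02 over all genes, with 12 of 29 (41.4%) above 0 against 48.1% of all genes. In 3 of 3 tumours 6 members (20.7%) were higher against 14.4% of all genes, and 8 (27.6%) were lower against 15.8%. For 21 of the 29 (72.4%) the 95% interval lay within a 2-fold change either way, against 42.9% of all genes, so larger changes of these 21 are outside their intervals. All genes were not matched to the members for level, and intervals are narrower at high counts. The part of this in the shares was not tested, so they are not read as a trait of the members.

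Srsf10 was among the 3 members with an unadjusted p under 0.05. Its product is an SR protein that represses splicing when dephosphorylated, as in heat shock and mitosis. It stood at 526, 311 and 488 CPM with Neurod1 detected and at 643, 592 and 642 without, in tumours 1, 2 and 3. The groups did not overlap, and every tumour was lower with Neurod1. The log2 difference was -0.40 (SE 0.18, 95% interval -0.78 to -0.013, edgeR adjusted p = 0.45). Groups did not overlap, with the lower level in Neurod1 barcodes, for 5.38% of all genes and for no other tested member.

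Hnrnpul2, a relative of Hnrnpu, was at 184, 207 and 222 CPM with Neurod1 and at 131, 148 and 123 without. The groups did not overlap and the level was higher with Neurod1 in all 3 tumours (log2 difference 0.65, SE 0.30, edgeR adjusted p = 0.45). In tumour 2 this rests on few counts, 2 with and 2 without a proliferation gene in each Neurod1 set. Hnrnph3, of the family that binds G-tracts, was the other tested member without overlap in this direction (0.46, adjusted p = 0.598), against 4.69% of all genes. In tumour 2 Hnrnph3 had 2 and 2 counts with Neurod1 (with and without a proliferation gene) and 2 and 1 without Neurod1. After thinning to 200 counts the Hnrnph3 groups overlapped, at 179, 122 and 429 CPM with Neurod1 and 191, 140 and 198 without. Hnrnpf, also a G-tract binder, was at 118, 104 and 98.9 CPM with Neurod1 and at 239, 37.0 and 144 without, so tumour 2 went the other way on 2 and 1 counts (-0.72, SE 0.34, adjusted p = 0.466). Srsf1 was at 125, 259 and 173 CPM with Neurod1 and 111, 148 and 76.1 without, higher in all 3 tumours (0.65, SE 0.35, adjusted p = 0.558). When each barcode was thinned to 200 counts, Srsf1 passed (log2 difference 1.74, edgeR adjusted p = 0.0094). That value rests on 31 counts with Neurod1 and 26 without, and adjusted p ranged from 0.0094 to 1.00 over the alternatives.

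The most abundant members showed small differences in the Neurod1 split. Hnrnpu was at 1815, 1503 and 2361 CPM with Neurod1 and at 2053, 1776 and 2789 without, lower in all 3 tumours with overlapping groups (log2 difference -0.23, SE 0.14, edgeR adjusted p = 0.62). Hnrnpa2b1 was at 1631, 1140 and 2089 CPM against 1869, 1739 and 2084 (-0.19, SE 0.15, adjusted p = 0.763). Hnrnpm (-0.22, adjusted p = 0.693) was lower in 3 of 3 tumours and Hnrnpk (0.091, 0.90) higher in 3 of 3. Srsf11 (0.14, 0.84), Hnrnpc (0.061, 0.953), Hnrnpd (-0.25, 0.732) and Hnrnpdl (-0.082, 0.937) had tumours on both sides. The 95% intervals of all 8 differences included 0.

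Markers of other cells differed between the sets in tumour 2. Oligodendrocyte lineage markers stood at 22.8 per 10000 counts with Neurod1 and 2.59 without (44 and 7 counts), against 6.77 and 5.35 in tumour 1 and 3.21 and 4.78 in tumour 3. Myeloid markers stood at 36.8 per 10000 counts with Neurod1 and 11.8 without in tumour 2, but at 5.13 against 7.61 in tumour 1 and 4.33 against 10.9 in tumour 3. Vascular markers ranged from 0 to 12.4 per 10000 with Neurod1 and from 1.31 to 2.96 without. Neutrophil markers had 39 counts with Neurod1 and 2 without in tumour 1. Mitochondrial genes took 4.94%, 7.75% and 5.37% of counts with Neurod1 and 5.98%, 13.5% and 6.93% without. The part of these differences in the member values was not tested. With barcodes of other cell types left out, 0 members passed.

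**Figure D3:**
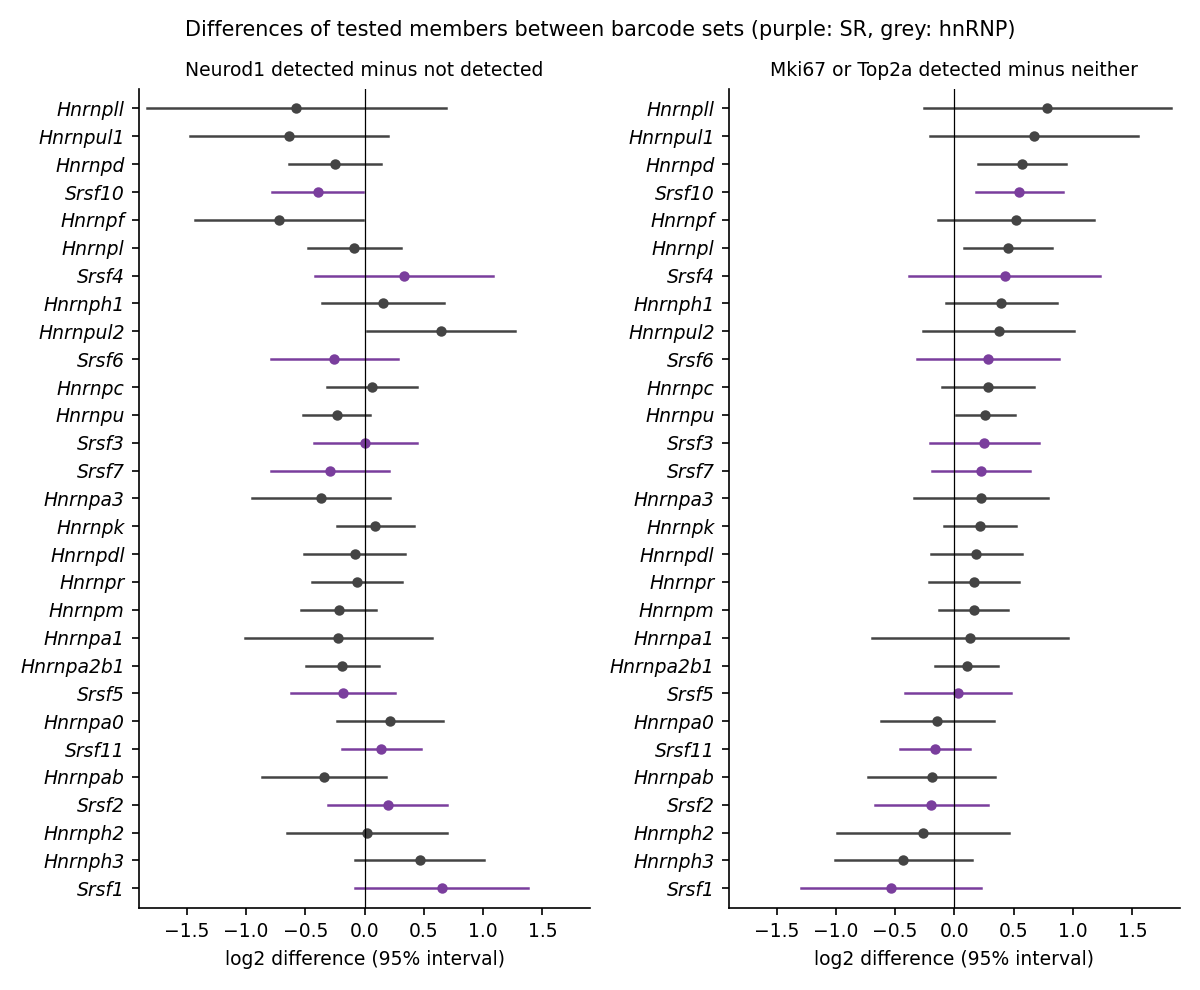
Log2 difference of the 29 tested members with 95% intervals (edgeR), between barcodes with and without Neurod1 (left) and with and without Mki67 or Top2a (right), SR genes in purple and hnRNP genes in grey, in the order of the right panel. On the left 12 genes lie above 0 and on the right 22, and no gene passed an adjusted p of 0.05 in either.

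The second comparison asked how the members differ between barcodes with and without mRNA of the proliferation genes Mki67 or Top2a. They were detected in 343, 58 and 377 barcodes, with medians of 447, 274.5 and 359 counts, against 318, 246.5 and 284 counts in the 717, 90 and 682 others. Members took 1.57%, 1.11% and 1.65% of counts with a proliferation gene detected and 1.38%, 1.15% and 1.41% without. The summed share was thus higher in tumours 1 and 3 and lower in tumour 2. With the very deep barcodes left out it was higher in tumour 2 also (1.28% against 1.15%). The means over tumours were 1.44% ± 0.288 and 1.31% ± 0.14 (SD, n = 3 each), and the difference within a tumour averaged 0.13 ± 0.148 percentage points (SD, n = 3). Without very deep barcodes it was 0.179 ± 0.054 points, and with barcodes thinned to 200 counts 0.123 ± 0.027 points, each above 0 in 3 of 3 tumours.

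Here too 0 of 29 tested members had an edgeR adjusted p under 0.05, where 2.85% of 3865 genes did, 77 higher and 33 lower. Without the tumour block 50 genes passed and 0 members. At an unadjusted p under 0.05 were 4 members, all higher, or 13.8% of members. Of all genes 11.0% had such a p, and 5.77% had it and were higher. DESeq2 called 0 members where it called 1.0% of all genes, and had 0 members at an unadjusted p under 0.05 against 4.09% of all genes. The median log2 difference of the members was 0.22 against -0.02 over all genes, and 22 of 29 (75.9%) lay above 0 against 48.6% of all genes. Of the members, 9 (31.0%) were higher in 3 of 3 tumours against 16.6% of all genes, and 2 were lower in 3 of 3 (6.90%) against 14.8%. The intervals of 22 of the 29 (75.9%) lay within a 2-fold change either way, against 36.6% of all genes. In this split too, all genes were not matched to the members for level.

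Hnrnpd, which encodes the AU-rich element binding protein AUF1, came nearest to the threshold. It stood at 632, 616 and 654 CPM with a proliferation gene detected and at 430, 297 and 454 without, in tumours 1, 2 and 3. The groups did not overlap, which held for 5.92% of all genes in this direction. The log2 difference was 0.57 (SE 0.18, 95% interval 0.20 to 0.94, edgeR adjusted p = 0.089), and the tumour 2 values rest on 14 and 7 counts. Hnrnpd passed when barcodes called doublets were left out (0.59, adjusted p = 0.0348), and over the alternatives its adjusted p ranged from 0.0348 to 0.999. Its difference was above 0 in 17 of 17 alternatives, with a lowest log2 difference of 0.21. After thinning its groups overlapped, and tumour 1 went the other way, at 542 against 555 CPM on 26 and 91 counts. Tumours 2 and 3 stayed higher, at 957 against 297 CPM on 9 and 6 counts and at 574 against 498.

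Srsf10 was at 798, 396 and 706 CPM with a proliferation gene detected and at 483, 551 and 484 without. Tumours 1 and 3 were higher and tumour 2 was lower, on 9 and 13 counts. The log2 difference was 0.55 (SE 0.18, 95% interval 0.18 to 0.92, edgeR adjusted p = 0.109). Without tumour 2 Srsf10 passed (0.63, adjusted p = 0.0221). It also passed without doublets (adjusted p = 0.0234), without other cell types (0.0457), from a minimum of 100 counts (0.0468) and without very deep barcodes (0.0173). In the other 12 of 17 alternatives it did not pass, with adjusted p up to 0.999, though its difference stayed above 0. Its promoter is the one shown above with 3 E2F matches, and no measure of E2F binding was made.

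Hnrnpl, which binds CA-rich RNA, was at 704, 704 and 449 CPM with a proliferation gene and at 521, 424 and 335 without. Each tumour was higher and the groups overlapped (log2 difference 0.45, SE 0.18, edgeR adjusted p = 0.27). Hnrnpu was at 2300, 1716 and 2837 CPM against 1771, 1611 and 2448, higher in 3 of 3 tumours (0.26, SE 0.12, adjusted p = 0.424). Hnrnph1, a G-tract binder, stood at 355, 308 and 339 CPM against 290, 254 and 229, without overlap (0.40, SE 0.23, adjusted p = 0.582). After thinning the Hnrnph1 groups overlapped, and tumour 1 went the other way, at 250 against 341 CPM on 12 and 56 counts. Tumours 2 and 3 stayed higher, at 532 against 347 CPM on 5 and 7 counts and at 236 against 203. Of these genes, Hnrnpl and Hnrnph1 were named after their values had been seen. The largest differences by size were those of the low-count genes Hnrnpll, which regulates Cd45 exons in T cells (0.78, SE 0.51, adjusted p = 0.689), and Hnrnpul1 (0.67, SE 0.43, adjusted p = 0.677). Neither was higher in all 3 tumours.

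Srsf1 and Srsf2 were the 2 members lower in all 3 tumours. Srsf2, also known as SC35 and a marker of nuclear speckles, stood at 266, 220.1 and 268 CPM with a proliferation gene and at 294, 297 and 308 without, and the groups did not overlap (log2 difference -0.20, SE 0.23, edgeR adjusted p = 0.883). Such an order was found for 5.87% of all genes. After thinning the Srsf2 groups overlapped, at 396, 319 and 152 CPM with a proliferation gene and 256, 297 and 275 without. Tumours 1 and 2 then went the other way, tumour 2 on 3 and 6 counts. Srsf1 stood at 99.8, 132 and 87.6 CPM against 126, 254 and 137 (-0.54, SE 0.37, adjusted p = 0.716). After thinning its tumour 1 went the other way, at 125 against 97.6 CPM on 6 and 16 counts. Srsf1 and Srsf2 are SR genes. Yet the 9 tested SR members and the 20 tested hnRNP members had the same median difference of 0.22, with 6 and 16 above 0. In the Neurod1 split the medians were 0.0064 for SR and -0.14 for hnRNP members, with 5 of 9 and 7 of 20 above 0. Srsf2 was named after its values had been seen.

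Of the remaining abundant members, Hnrnpc was at 610, 616 and 665 CPM with a proliferation gene and 479, 170 and 643 without (log2 difference 0.28, edgeR adjusted p = 0.712), higher in 3 of 3 tumours. Hnrnpk (0.22, adjusted p = 0.712), Hnrnpdl (0.19, 0.847), Hnrnpm (0.16, 0.814), Hnrnpa2b1 (0.10, 0.897) and Srsf11 (-0.16, 0.814) had tumours on both sides. Granule neuron markers were lower where a proliferation gene was detected, at 11.6, 8.80 and 10.6 per 10000 counts against 23.4, 14.4 and 22.4. Myeloid markers stood at 33.0 against 11.9 per 10000 in tumour 2 and at 5.10 against 7.87 and 6.36 against 9.60 in tumours 1 and 3. Oligodendrocyte lineage markers stood at 2.20 against 19.5 per 10000 in tumour 2, 3.05 against 7.56 in tumour 1 and 3.68 against 4.49 in tumour 3. Vascular markers stood at 11.0 against 2.97 in tumour 2 and 0.388 against 2.17 in tumour 1, and astrocyte markers at 4.43 against 9.97 in tumour 1. The part of these differences in the member values was not tested, and Srsf10 passed when barcodes with calls for other cell types were left out, as given above.

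Each barcode set by 1 split also differs in the other gene, so the 4 combinations were summed for each tumour. Barcodes with Neurod1 only numbered 249, 34 and 286, those with a proliferation gene only 262, 41 and 256, those with both 81, 17 and 121 and those with neither 468, 56 and 396. Hnrnpd stood at 661, 648 and 703 CPM in barcodes with a proliferation gene only and at 550.1, 578 and 566 in those with both. It was at 470, 273 and 441 CPM with neither and at 363, 336 and 470.0 with Neurod1 only. Without thinning, both sets with a proliferation gene were thus above both sets without it in each tumour. The tumour 2 values of Hnrnpd rest on only 8, 6, 4 and 3 counts, in the order given. Srsf10 stood at 848, 486 and 749 CPM with a proliferation gene only and at 467, 336 and 400.0 with Neurod1 only. In barcodes with both it was at 656, 289 and 631 CPM and in those with neither at 492, 681 and 551. The tumour 2 values of Srsf10 rest on 6, 3, 3 and 10 counts, in the order given.

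With both splits in 1 model, 0 of 27 tested members passed for either term. The difference of the proliferation effect between barcodes with and without Neurod1 was tested as an interaction. It passed for 0 of 27 members in edgeR, where 0.0804% of 2488 genes did, with 0 members at an unadjusted p under 0.05 against 3.14% of all genes, and for 0 members in DESeq2, with 0 at an unadjusted p under 0.05 against 1.77% of all genes. The intervals of this difference were wide, and 7 of the 27 lay within 2-fold against 8.44% of all genes, again not matched for level. For Srsf10 it was -0.072 (95% interval -0.82 to 0.67) and for Hnrnpd -0.21 (-0.98 to 0.56; edgeR adjusted p = 0.999 for each).

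**Figure D4:**
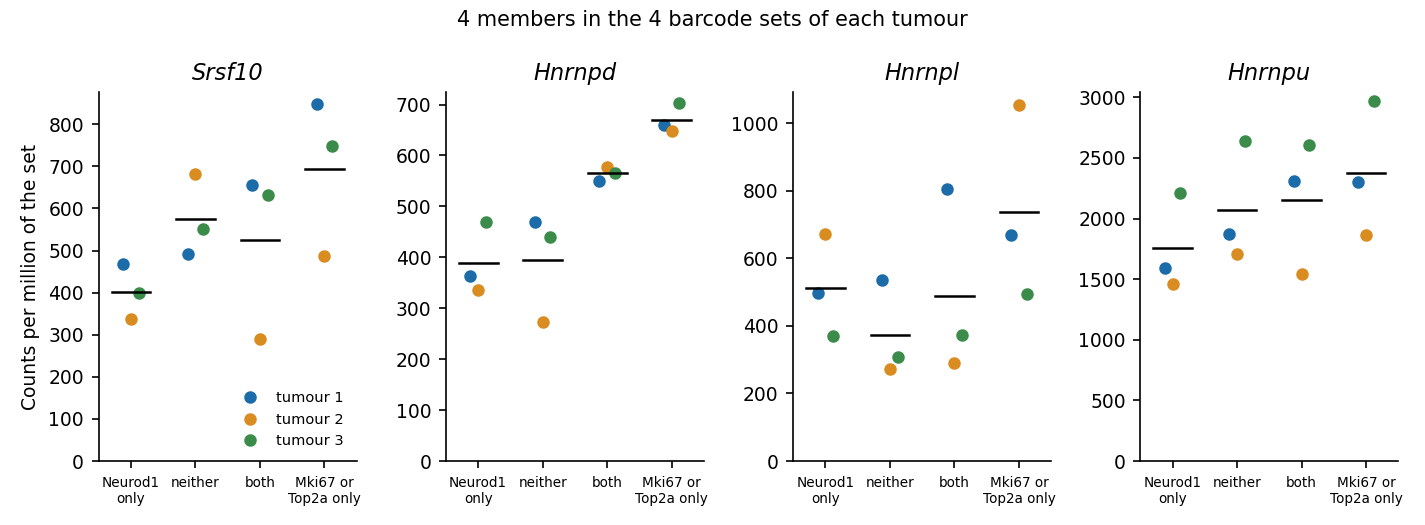
CPM of Srsf10, Hnrnpd, Hnrnpl and Hnrnpu in barcodes with Neurod1 only, neither, both, or Mki67 or Top2a only, 1 point a tumour and a bar at the mean of 3 tumours. For Hnrnpd, without thinning, the sets with Mki67 or Top2a lie at 550.1 CPM or above in every tumour and the others at 470 or below. The tumour 2 points of Hnrnpd rest on 3 to 8 counts each.

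Other splicing genes were read from lists chosen with earlier results of these data known. Of 24 neural splicing regulators, 16 were tested in the Neurod1 split, of which 2 rose, 0 fell and 14 did not pass, with a median log2 difference of 0.44. Over all genes 34 of 3477 (0.978%) passed, with a median of -0.02. Celf4, a neuronal CELF family regulator, was at 539, 570.2 and 556 CPM with Neurod1 and at 162, 296 and 178 without (log2 difference 1.60, SE 0.22, edgeR adjusted p = 0.00304). Elavl3, a neuronal Hu protein gene, was at 1111, 829 and 667 CPM against 404, 222 and 452 (1.09, SE 0.20, adjusted p = 0.0142). Both genes fell with proliferation genes, with log2 differences of -1.22 for Celf4 (SE 0.24, edgeR adjusted p = 0.00206) and -0.63 for Elavl3 (SE 0.18, adjusted p = 0.0494), among 17 tested regulators of which 0 rose and 15 did not pass (median -0.51). Over all genes 110 of 3865 (2.85%) passed there, with a median of -0.02. In the Neurod1 split both calls were lost without tumour 1 (adjusted p = 0.998 for each), without tumour 3 (0.897 for Celf4 and 0.545 for Elavl3), without the tumour block (0.154 and 0.483) and in DESeq2 (0.475 and 1.00), with the log2 differences above 0 in 17 of 17 alternatives. In the split by proliferation genes the same 4 settings ended both calls, at adjusted p of 0.69, 0.962, 0.131 and 0.332 for Celf4 and of 0.999, 0.999, 0.826 and 0.999 for Elavl3. They were also lost after thinning (0.0991 for Celf4, and 0.719 for Elavl3 with a log2 difference of -0.33) and from 500 counts (0.999 each). The Elavl3 call was further lost with no filter (0.12), from 100 counts (0.182) and with DESeq2 size factors (0.0583). In all, Celf4 passed in 11 and Elavl3 in 8 of 17 alternatives, with differences below 0 in each.

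General splicing genes had 0 calls in edgeR or DESeq2 in either split. In the Neurod1 split 0 of 14 tested hnRNP proteins with other symbols, 0 of 20 SR-related proteins, 0 of 5 SR protein kinases and 0 of 45 core spliceosome genes passed, with 0, 2, 0 and 1 at an unadjusted edgeR p under 0.05. Their median log2 differences were -0.17, -0.12, -0.06 and -0.12, and 34 of the 45 core spliceosome genes lay below 0, against 1804 of 3477 genes. In the split by proliferation genes 0 of 15, 20, 6 and 49 passed, with 2, 2, 1 and 3 at an unadjusted p under 0.05, and medians of 0.075, 0.024, 0.15 and 0.046. These medians lay below the 0.22 of the SR and hnRNP members, and the difference between the lists was not tested. The SR protein kinases, which phosphorylate the serines of SR proteins, were above 0 in 6 of 6 tested genes, against 48.6% of all genes. Their log2 differences ran from 0.041 to 0.52, and a shared rise was not tested.

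Reads of a few members can be shared with near-identical copies. In 23 of 31 members with protein-coding transcripts in GENCODE M21, no window of 50 bases in the last 500 bases of any such transcript occurred in a transcript of another gene. The other 8 had such windows, and for Hnrnpk, Hnrnpa3 and Hnrnpf at least 1 transcript end was wholly shared with other genes, 37 of them for Hnrnpa3. How reads that match several genes were counted is not given in the sources used here, so the levels of these 3 genes are uncertain. Srsf10 and Hnrnpd had no shared window.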

How the data were processed

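The deposited tables hold whole-number counts per gene and barcode for 3 tumours, from Drop-seq libraries of mRNA 3′ ends, per the labels. The submitters' processing notes name STAR and Cell Ranger, with no version or role, and the human build GRCh38, although 32 of 32 members and 94.0% of the symbols match mouse gene names. No coordinates were therefore taken from the tables. Every barcode held at least 51 counts.

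Counts were summed for each tumour over barcodes of at least 200 counts, split by 1 or more counts of Neurod1, or of Mki67 or Top2a. These 3 genes were not tested. Sums were fitted with edgeR 4.0.16 in R 4.3.3 (TMM factors, filterByExpr, quasi-likelihood test, tumour as block), and p-values were adjusted by Benjamini-Hochberg over all genes tested, with a threshold of 0.05. The fits were tested on data simulated without differences between tumours. A 2-fold change (log2 of 1) was called for 44% of changed genes in the Neurod1 split, 35% in the other and 7% for the interaction. For a log2 change of 2 these shares were 84%, 79% and 44%. A member with a 2-fold change could therefore fail to pass. Both sets of a tumour come from the same animal, which gives the pairing. Their deviations from the set means correlated at 0.19, 0.095 and 0.15 in the Neurod1 split and at 0.18, 0.092 and 0.13 in the other. The tumours are separate mice by their titles only. With the block, p-values set the difference between the sets of a tumour against its variation over these 3 tumours. The quasi-likelihood fit estimates that variation partly from all genes tested. It is therefore not the spread of 1 gene over the 3 tumours alone.

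Alternatives were other scalings, DESeq2 1.42.0, no filter, no block, each tumour left out, thinning to 200 counts, minima of 100 and 500 counts, a mitochondrial limit of 10%, and both splits in 1 model. Thinned barcodes were split by the counts left after 1 random draw, so thinned sets are not the same barcodes as the main sets. A proliferation gene was then found in 47 to 296 barcodes a tumour, against 58 to 377. Barcodes called doublets by Scrublet in scanpy 1.11.5 at an expected rate of 6%, and barcodes with at least 3 counts of 2 or more markers of another cell type, were kept in the main fit and left out in alternatives. Scrublet called 2, 29 and 2 of 1060, 148 and 1059 barcodes as doublets, which for tumours 1 and 3 is too few for the caller to be taken as working. Leaving out very deep barcodes, over the median by more than 4 SD, was added after seeing the data.

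The members, lists and tests were chosen with earlier results of these data known. Values are given for the 8 members with the highest mean level, members past the threshold, the 3 with the largest difference in each split, and called genes of the other lists. Other members described were chosen after their values were seen. Poisson intervals are exact, at 95%, and cover counting error only.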

Additional observations from a re-analysis of the deposited data

How the results depend on the processing

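Of the differences of the 15 members named by rule or added to it, over both splits and the alternatives, 463 kept their direction and side of the threshold, 7 came to pass it and 13 changed sign. Over all 29 tested members the sign changed in 29 of 467 values in the Neurod1 split (12 members, to between -0.34 and 0.33) and in 21 of 469 in the other (13 members, to between -0.64 for Srsf5 after thinning and 0.33 for Hnrnpa0 without tumour 1). Members called went from 0 to 1 in the Neurod1 split after thinning (Srsf1). In the split by proliferation genes they went from 0 to 1 without other cell types, from 100 counts and without very deep barcodes (Srsf10 each), to 2 without doublets (Hnrnpd and Srsf10), and ranged from 0 to 1 with each tumour left out.

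Genes called in the Neurod1 split, 34 with the tumour block, were 0 without the replicate block, 0 in DESeq2, 66 without TMM, 58 after thinning, 99 without doublets, 97 without other cell types, 9 from 500 counts, 56 from 100 counts, 69 with both splits in the model and 116 without very deep barcodes. They ranged from 0 to 159 with each tumour left out, at 0 without tumour 1 or 3 and 159 without tumour 2. In the split by proliferation genes, 110 with the block, they were 50 without the block, 32 in DESeq2, 52 after thinning, 12 from 500 counts, 173 from 100 counts and 166 without very deep barcodes. They were 4, 169 and 0 without tumours 1, 2 and 3, a range of 0 to 169. For the interaction, 2 with the block, they were 0 without the block, 0 in DESeq2, after thinning, without other cell types and without very deep barcodes, 1 without doublets, and from 0 to 2 with each tumour left out. The block changed no member's call.

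Among the 15 members, the log2 differences that changed sign in the Neurod1 split were Srsf11 (-0.0077 to 0.20 with each tumour left out, lowest without tumour 3), Hnrnpc (-0.11 without tumour 3 to 0.13, -0.064 from 500 counts, -0.019 from 100 counts), Hnrnpdl (0.051 in DESeq2, -0.14 to 0.33 with each tumour left out, highest without tumour 1, 0.31 after thinning), Hnrnpl (0.034 after thinning) and Hnrnpll (0.11 from 100 counts). In the split by proliferation genes they were Hnrnpa2b1 (-0.092 without tumour 3 to 0.16), Hnrnpm (-0.074 after thinning), Srsf11 (0.079 from 500 counts) and Hnrnpdl (-0.029 without tumour 3 to 0.21). The cause was not tested. Depth limits tumour 2 most, with 525 member counts in its barcodes of at least 200 counts.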

Other observations

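At least 1 count of a member was found in 97.0%, 92.6% and 96.3% of barcodes of 200 or more counts in tumours 1, 2 and 3, with means of 6.40, 3.55 and 5.68 member counts a barcode. With each barcode thinned to 200 counts the shares were 91.7%, 85.8% and 91.4% and the means 2.87, 2.40 and 2.95 counts. Cbx3, which starts 722 bases from Hnrnpa2b1 on the other strand, had a log2 difference of 0.69 with a proliferation gene (edgeR adjusted p = 0.07), beside 0.10 for Hnrnpa2b1. Cbx5, which starts 545 bases from Hnrnpa1, had 0.38 (edgeR adjusted p = 0.219) beside 0.13 for Hnrnpa1.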
